A study of Mus musculus with 6 samples.

Results

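The Gimap family (GTPases of immunity-associated proteins) comprised 8 mouse genes here, Gimap1, Gimap3, Gimap4, Gimap5, Gimap6, Gimap7, Gimap8 and Gimap9, out of 15027 genes tested. They were found by the platform annotation: 11 probe sets carried a single symbol of the family, and each gene was represented by the probe set chosen by the highest mean over all 6 arrays. All 8 representatives had a mean above the dim limit of log2 2.98, below which the dimmest 25% of probe sets were left out, although Gimap7 passed only through 1 array. The family was put forward with earlier results of these data known, so its differences between the populations are given as a description.

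Affymetrix arrays were run on cells sorted from the tumours of 3 mice of the MMTV-Wnt-1 strain, whose transgene expresses Wnt1 in mammary tissue from a viral (MMTV) promoter. From each mouse came a population labelled tumorigenic, gated CD24+Thy+CD45-, and a population labelled nontumorigenic, described as the cells outside that gate, which gave 3 arrays against 3. Ages and genetic background are not given in the labels, the Wnt1 transgene is shared by all arrays, and total RNA was amplified before labelling. The design text states that tumorigenic and nontumorigenic samples were compared to derive a gene signature.

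Ptprc is the gene of CD45, the leukocyte surface protein used to gate cells out, and its log2 level under the tumorigenic label was 10.21 in mouse 1, 7.76 in mouse 2 and 3.82 in mouse 3. In the arrays labelled nontumorigenic it read 2.33, 3.59 and 2.51. The transcript therefore went against the CD45-negative gate in every mouse, by 7.88, 4.17 and 1.31 log2 units in mice 1, 2 and 3. The level in mouse 3 was low, but still above all 3 labelled nontumorigenic arrays. All directions below are between labels. Cd24a, the CD24 gene, read 11.85, 12.34 and 12.84 under the tumorigenic label and 12.86, 12.84 and 12.99 under the nontumorigenic label. Thy1 read 10.83, 10.51 and 9.33 under the tumorigenic label and 10.25, 9.67 and 10.04 under the nontumorigenic label. The 3' control probe set of Gapdh exceeded the 5' one by 2.62 to 6.60 log2 units in the labelled tumorigenic arrays, with mouse 2 highest, and by 2.41 to 3.78 in the labelled nontumorigenic arrays. The 3' control probe set of 18S ribosomal RNA read 7.76, 6.32 and 7.38 under the tumorigenic label and 8.97, 8.52 and 8.66 under the nontumorigenic label. It was thus lower in every labelled tumorigenic array, separating the labels as Gimap4, Gimap5 and Gimap8 did in the other direction, and its part in the Gimap differences was not tested.

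Gimap proteins share a GTP-binding domain of the AIG1 type and are attached to or recruited to intracellular membranes. In mice and rats they are best known from lymphocytes, where several members influence the survival of T and B cells, and Gimap5 also has a described role in endothelial cells of the liver. The genes lie in a compact cluster. In the GRCm38.p6 annotation the 8 members follow each other on chromosome 6 in the order Gimap8, Gimap9, Gimap4, Gimap6, Gimap7, Gimap1, Gimap5 and Gimap3.

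All 8 genes had a higher mean under the tumorigenic label, and the members fell into visibly different patterns across the mice. Gimap4, Gimap5 and Gimap8 were higher in every labelled tumorigenic array than in any labelled nontumorigenic array, with log2 differences of 3.00, 1.93 and 1.41. Gimap6, Gimap1 and Gimap9 were higher within each mouse, but their populations overlapped or touched. Gimap3 and Gimap7 stood out in 1 array, the labelled tumorigenic one of mouse 1. By limma over all 15027 genes 0 genes had an adjusted p below 0.05, that is 0% of genes, and 0 Gimap genes, so none of these differences passed the test. Sorted populations are mixtures: more cells of a type and more RNA per cell cannot be told apart in these values.

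**Figure D1:**
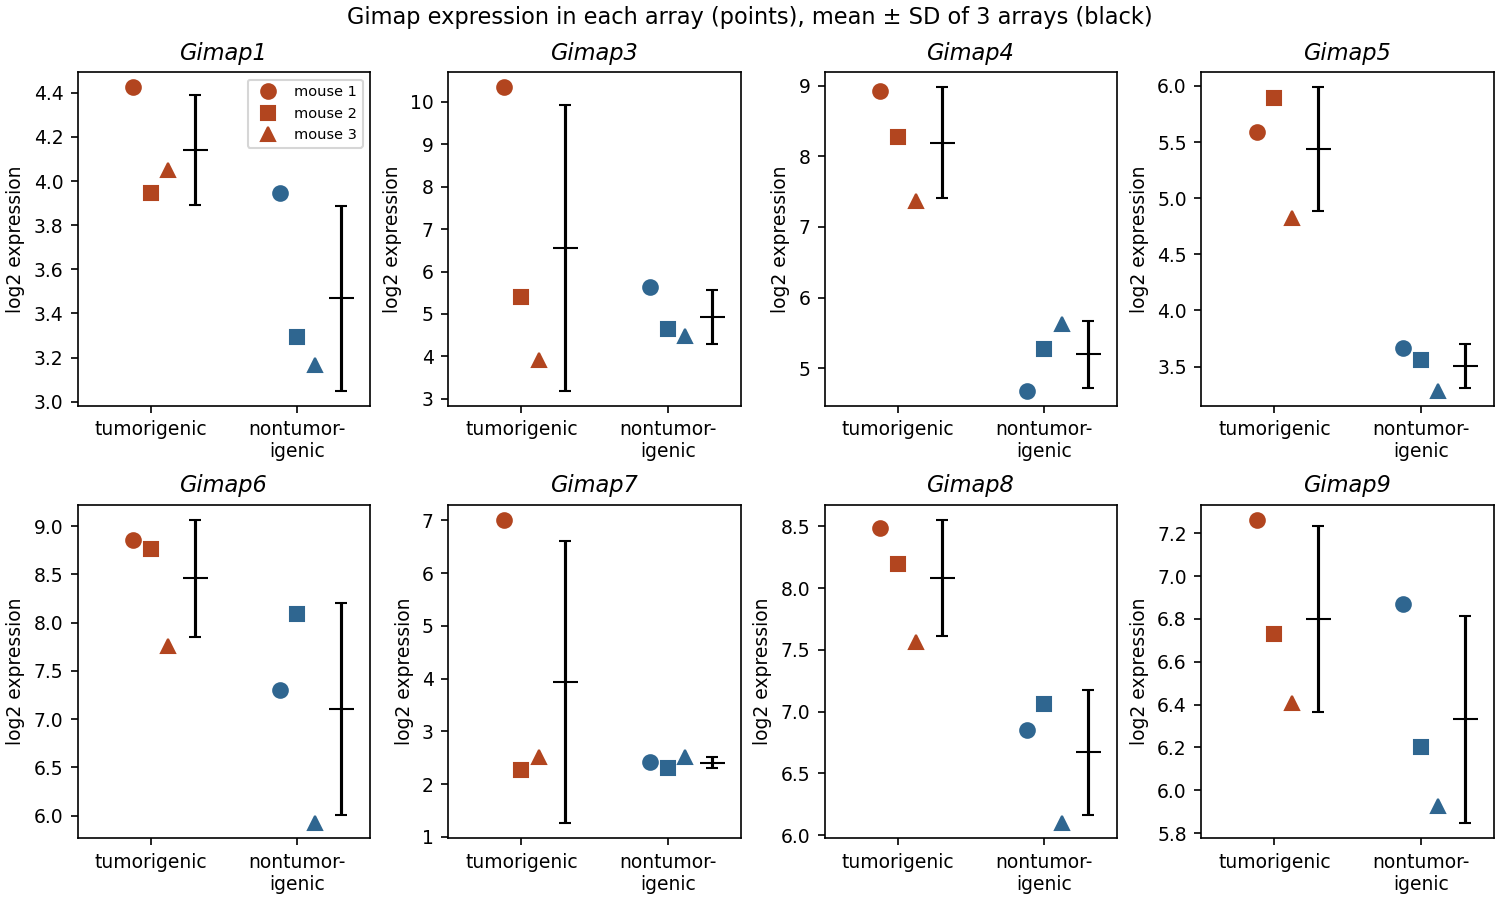
Log2 expression of each Gimap gene (own vertical axis per gene, not starting at 0) in the 3 labelled tumorigenic arrays (left, red) and the 3 labelled nontumorigenic arrays (right, blue). Points are arrays with the marker giving the mouse, and black marks are mean ± SD (n = 3). Gimap4, Gimap5 and Gimap8 separate the labels, while Gimap3 and Gimap7 rest on mouse 1.

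Gimap4, which in mice modulates the pace of T cell death, had the largest difference of the family. Under the tumorigenic label mice 1, 2 and 3 read 8.93, 8.28 and 7.37, against 4.68, 5.28 and 5.63 under the nontumorigenic label. The lowest labelled tumorigenic value lay 1.75 log2 units above the highest labelled nontumorigenic one. The means were 8.19 ± 0.78 and 5.19 ± 0.48 (SD, n = 3 each), 3.00 log2 units apart with an SE of 0.45 and a 95% interval from 1.91 to 4.09 (limma adjusted p = 0.243). Within mice 1, 2 and 3 the differences were 4.26, 3.00 and 1.75. Of all genes tested, 0.293% had a larger positive difference.

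Gimap5, whose loss in mice and rats depletes peripheral T cells, read 5.59, 5.89 and 4.82 under the tumorigenic label and 3.67, 3.56 and 3.29 under the nontumorigenic label. The labelled nontumorigenic values were tight, and the lowest labelled tumorigenic value was 1.16 above the highest of them. The means were 5.43 ± 0.55 and 3.50 ± 0.20 (SD, n = 3 each), so the labels differed by 1.93 log2 units, with an SE of 0.31 and an adjusted p of 0.247 by limma. The differences within mice 1 to 3 were 1.92, 2.33 and 1.54, with mouse 2 highest.

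Gimap8 encodes the largest protein of the family, with several GTP-binding domains. It read 8.49, 8.19 and 7.56 under the tumorigenic label and 6.85, 7.06 and 6.10 under the nontumorigenic label. The populations were separated by 0.50 log2 units. The means were 8.08 ± 0.47 and 6.67 ± 0.51 (SD, n = 3 each), so the labels differed by 1.41 log2 units, with an SE of 0.35 and an adjusted p of 0.441 by limma. Its differences within mice 1 to 3 were 1.64, 1.13 and 1.47, a range narrower than that of Gimap4.

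Gimap6, whose product takes part in autophagy in lymphocytes, read 8.86, 8.77 and 7.76 under the tumorigenic label. Under the nontumorigenic label it read 7.31, 8.09 and 5.92, so the mouse 2 value there lay above the mouse 3 value of the other population. The pairs nevertheless had the same sign in all mice, with differences of 1.55, 0.68 and 1.84. The mean log2 difference was 1.36 (SE 0.60; limma adjusted p = 0.608), with a 95% interval from -0.11 to 2.82.

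Gimap1, needed for the development of mature B and T cells in mice, read 4.42, 3.95 and 4.05 under the tumorigenic label and 3.95, 3.29 and 3.17 under the nontumorigenic label. The lowest labelled tumorigenic value, of mouse 2, equalled the highest labelled nontumorigenic one, of mouse 1. Gimap9, a less studied member, read 7.26, 6.73 and 6.41 against 6.87, 6.20 and 5.93, with overlapping populations. The log2 differences of Gimap1 and Gimap9 were 0.67 (SE 0.27; limma adjusted p = 0.572) and 0.47 (SE 0.33; limma adjusted p = 0.732). Both were positive in each mouse, between 0.48 and 0.88 for Gimap1 and between 0.40 and 0.53 for Gimap9. For these genes mouse 1 was the highest array in each population.

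Gimap3, a close relative of Gimap5 in the mouse, read 10.34, 5.41 and 3.91 under the tumorigenic label, against 5.65, 4.65 and 4.47 under the nontumorigenic label. The mouse 1 value stood 4.70 log2 units above the next highest array, and the mouse 3 value was the lowest of all 6. The differences within mice 1 to 3 were 4.70, 0.76 and -0.56, with a mean of 1.63 and a 95% interval from -2.27 to 5.54 (limma adjusted p = 0.804). With that mouse 1 array left out, it was -0.26.

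Gimap7, whose human counterpart forms GTP-dependent dimers, read 7.01, 2.26 and 2.52 under the tumorigenic label and 2.42, 2.30 and 2.51 under the nontumorigenic label. All arrays but that of mouse 1 were below the dim limit, so only a single array held a level above it. The mean log2 difference of 1.53 (SE 1.25; limma adjusted p = 0.765) came from that array, and it was -0.015 without it. The differences within mice 2 and 3 were -0.035 and 0.013.

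The family was described as a group only by counts. The populations did not overlap, with the tumorigenic label higher, in 3 of 8 members and in 6.9% of all genes. An unadjusted p below 0.05 with a higher mean was found in 4 of 8 members, Gimap1, Gimap4, Gimap5 and Gimap8, and in 5.23% of all genes. With the mouse as a block it was found in 6 of 8 members, Gimap6 and Gimap9 as well, and in 5.77% of all genes. The family was proposed for this contrast, so nothing is read from these shares. The median log2 difference over the 8 members was 1.47, beside 0.0051 over all genes tested. It was 1.78, 0.72 and 1.17 within mice 1, 2 and 3. It was 0.84 when the labelled tumorigenic array of mouse 1 was left out, and 0.62 when mouse 3 alone stood for this label, a setting chosen after seeing the data. On that array 5 of 8 members lay above all 3 labelled nontumorigenic arrays, as did 25.4% of all genes.

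**Figure D2:**
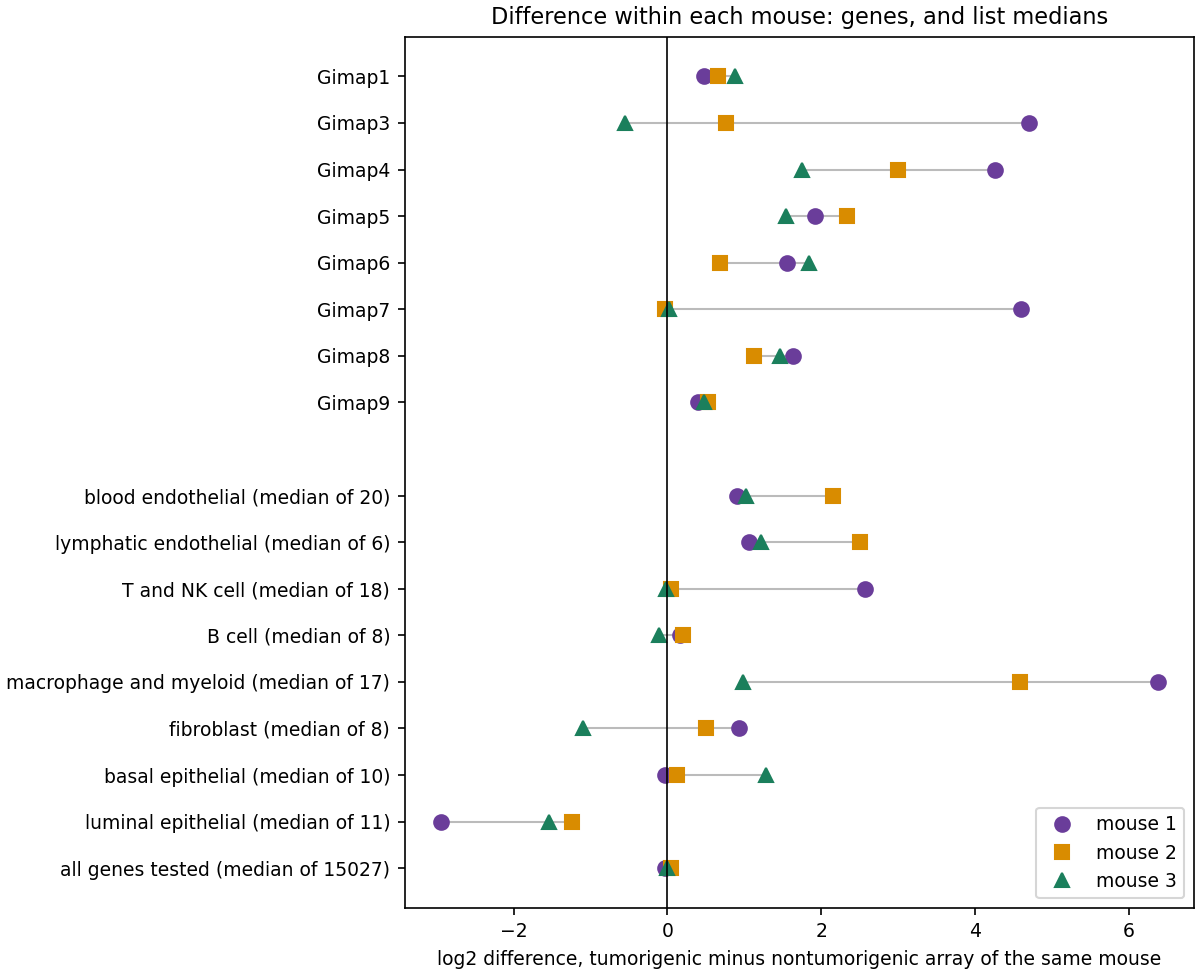
Log2 difference between the labelled tumorigenic and the labelled nontumorigenic array of the same mouse, 1 point per mouse, for each Gimap gene (top) and as the median over each marker list (below). Grey lines span the 3 mice, and the bottom row is the median over all 15027 genes. Gimap3, Gimap7 and the T and NK cell list reach far above 0 in mouse 1 alone, while the other 6 Gimap genes, both endothelial lists and the macrophage and myeloid list are above 0 in every mouse.

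Several genes had more than 1 probe set, which gave a second reading of the same arrays. For Gimap4 the chosen probe set, with a mean of 6.69 over the 6 arrays, was of the type whose probes can match more than 1 transcript. The other, with a mean of 5.33, read 7.52, 6.93 and 6.25 under the tumorigenic label and 3.75, 3.93 and 3.60 under the nontumorigenic label. It separated the labels as well, with 3.14 log2 units between labels (SE 0.34; limma adjusted p = 0.254 over 33778 probe sets, of which 0% passed).

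For Gimap6 the probe set with a mean of 6.72 read 8.22, 7.25 and 7.27 under the tumorigenic label and 5.78, 7.04 and 4.77 under the nontumorigenic label, against a mean of 7.78 for the chosen one. Here the populations did not overlap, though by only 0.21 log2 units between the arrays of mouse 2, and the log2 difference was 1.72 (SE 0.61; limma adjusted p = 0.613). For Gimap7 the second probe set had a mean of 2.65, below the dim limit, against 3.17 for the chosen one. It read 2.66 in the labelled tumorigenic array of mouse 1, where the chosen one read 7.01, so the mouse 1 value of Gimap7 was seen by 1 of its 2 probe sets. Its log2 difference was -0.058, opposite in sign to that of the chosen probe set. The other 5 genes had 1 probe set each. The probe sequences were not analysed here, so signal shared between these related genes was not tested.

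**Figure D3:**
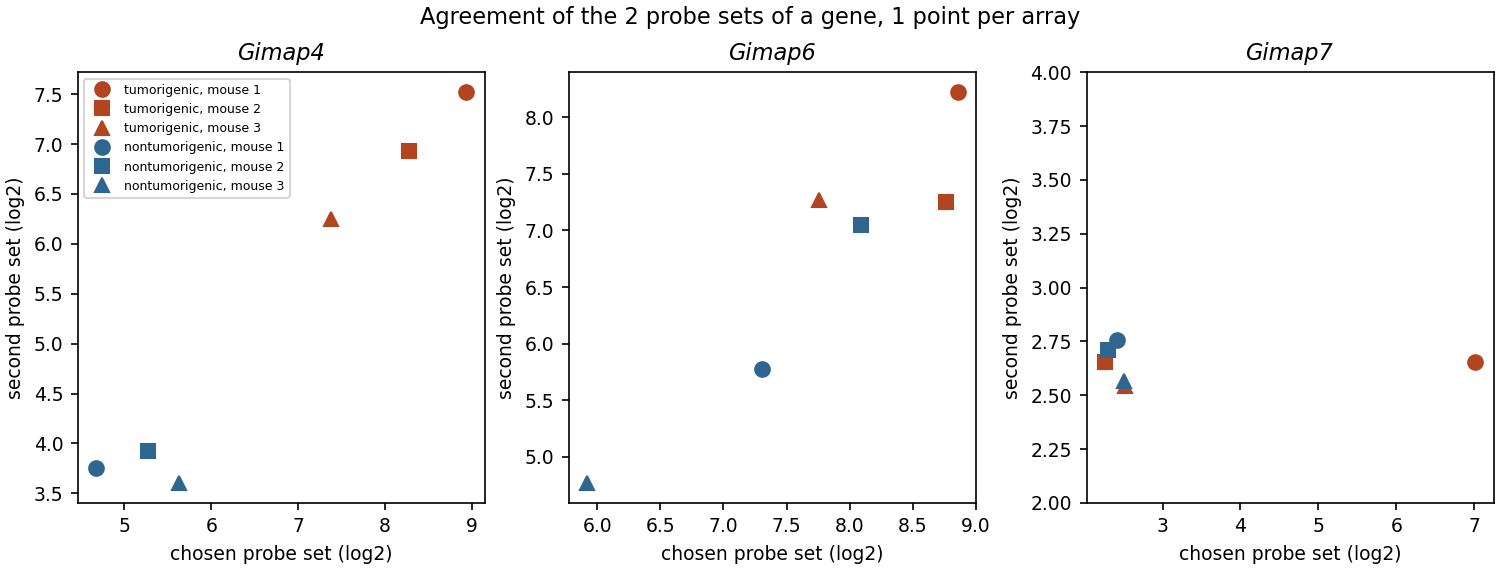
Log2 expression by the chosen probe set (horizontal) and the second probe set (vertical) of Gimap4, Gimap6 and Gimap7, with 1 point per array (red, labelled tumorigenic; blue, labelled nontumorigenic; marker, mouse). The axes do not start at 0. The Gimap4 probe sets place the same 3 arrays high, whereas the second Gimap7 probe set stays between 2.54 and 2.76 in all arrays.

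Gimap transcripts are known from lymphocytes and from endothelium, so marker lists of these and other cell types were set beside the members. The 20 blood endothelial genes all had positive differences, with a median of 1.40, and 17 of 20 were higher without overlap between the labels, beside 6.9% of all genes. Their medians within mice 1 to 3 were 0.90, 2.15 and 1.02. The mean level of the list was 7.40 to 8.32 in the labelled tumorigenic arrays and 6.23 to 6.69 in the labelled nontumorigenic arrays. Among the highest by level, the vessel matrix protein gene Mmrn2 had a log2 difference of 1.30 and the diaphragm protein gene Plvap 1.63. The VEGF receptor gene Flt1 had 0.65 and the TGF-beta co-receptor gene Eng 0.74. The 6 lymphatic endothelial genes had a median of 1.52, and 5 of 6 did not overlap. By level the first were the podoplanin gene Pdpn at 0.49 and the reelin gene Reln at 0.88, which overlapped, then the receptor gene Flt4 at 2.60 and the lymphatic transcription factor gene Prox1 at 1.19. Of these endothelial genes 0 passed the limma test.

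For T and NK cells the median was 0.83 over 18 tested genes of 24 listed, of which 20 were on the array. Their medians within mice 1 to 3 were 2.57, 0.047 and -0.016. The mean level of the list was 3.49 to 6.46 in the labelled tumorigenic arrays, with mouse 1 highest, and 3.76 to 4.03 in the labelled nontumorigenic arrays. Cd8a, a co-receptor of cytotoxic T cells, read 8.25, 4.44 and 4.37 under the tumorigenic label and 4.13, 4.43 and 4.29 under the nontumorigenic label. The chemokine gene Ccl5 read 10.03, 6.72 and 3.56 under the tumorigenic label and 3.56, 5.57 and 3.37 under the nontumorigenic label. The kinase gene Zap70 had a log2 difference of 1.13. Cd3e went another way, at 10.28, 6.95 and 3.50 under the tumorigenic label and 7.15, 7.29 and 7.05 under the nontumorigenic label, with a mean difference of -0.25. Among T and NK cell genes 0 were called and 0 of 18 separated the populations, beside 6.9% of all genes that were higher without overlap. The tested genes whose labelled nontumorigenic mean was below the dim limit numbered 3, and Gzma and Ncr1 failed the filter altogether.

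B cell genes had a median of 0.11 over 8 tested members, with 0 called, and Ms4a1, which encodes CD20, failed the filter. Their mean level was 3.35 to 4.23 in the labelled tumorigenic arrays and 3.40 to 3.71 in the labelled nontumorigenic arrays. Blnk, a B cell adaptor gene, had a difference of 0.71 and read 6.77 in the labelled tumorigenic array of mouse 1 and 5.50 in the labelled nontumorigenic one. Cd22 had 1.18 and read 5.80 in the labelled tumorigenic array of mouse 1, while Vpreb3 had -0.13 and Fcrla -0.025. Macrophage and myeloid genes had the highest median of the lists, 4.05 over 17 tested members, or 6.38, 4.59 and 0.98 within mice 1 to 3. Of them 13 of 17 were higher without overlap, beside 6.9% of all genes. Their mean level was 5.48 to 10.06 in the labelled tumorigenic arrays and 4.15 to 4.24 in the labelled nontumorigenic arrays. Csf1r, the receptor gene for colony-stimulating factor 1, had a log2 difference of 5.05, the complement gene C1qb 6.85 and the lysosomal protein gene Laptm5 5.46, while Cd14 had -0.20. The part of leukocyte and endothelial content in the Gimap differences was not tested.

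The tally of genes that were at least 1 log2 unit higher in the labelled tumorigenic array of mouse 1 than in each of the other 5 arrays separated the lists further, with a limit chosen after the values were seen. It held 2 of 8 Gimap genes, Gimap3 and Gimap7, and 2.32% of all genes. Of T and NK cell genes 13 of 18 were in it, of macrophage and myeloid genes 14 of 17, and of B cell genes 2 of 8. Of blood endothelial genes 0 of 20 were in it, and of lymphatic endothelial genes 0 of 6. The tally held 2 of 21 genes of lymphocyte survival and 1 of 11 immunity-related and guanylate-binding GTPase genes, lists described further on, and 0 pericyte, fibroblast, luminal or basal epithelial genes.

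Each profile over the 6 arrays was centred on its own mean and compared by root mean square distance in log2 units, as a description over arrays that share 3 animals. Gimap5 and Gimap8 lay 0.31 and 0.39 from the mean profile of the blood endothelial list, and 0.99 and 0.78 from that of the T and NK cell list. They lay 0.37 and 0.55 from the lymphatic endothelial profile, and 0.69 and 0.53 from that of the immunity-related and guanylate-binding GTPases. Gimap6 lay 0.69 from the blood endothelial, 0.74 from the GTPase, 0.78 from the lymphatic endothelial and 0.93 from the T and NK cell profile. For Gimap4 these distances were 0.98 and 1.23, and it was as near to the macrophage and myeloid profile, at 1.01. Gimap7 was nearer to the T and NK cell profile, at 0.80 against 1.62 for the blood endothelial one, and so was Gimap3, at 1.19 against 1.96. The macrophage and myeloid profile lay between these, at 1.56 from Gimap7 and 1.49 from Gimap3. Gimap1 and Gimap9 varied little and were nearest to flat lists, at 0.31 from the lymphocyte survival list for Gimap1 and 0.24 from the B cell list for Gimap9.

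**Figure D4:**
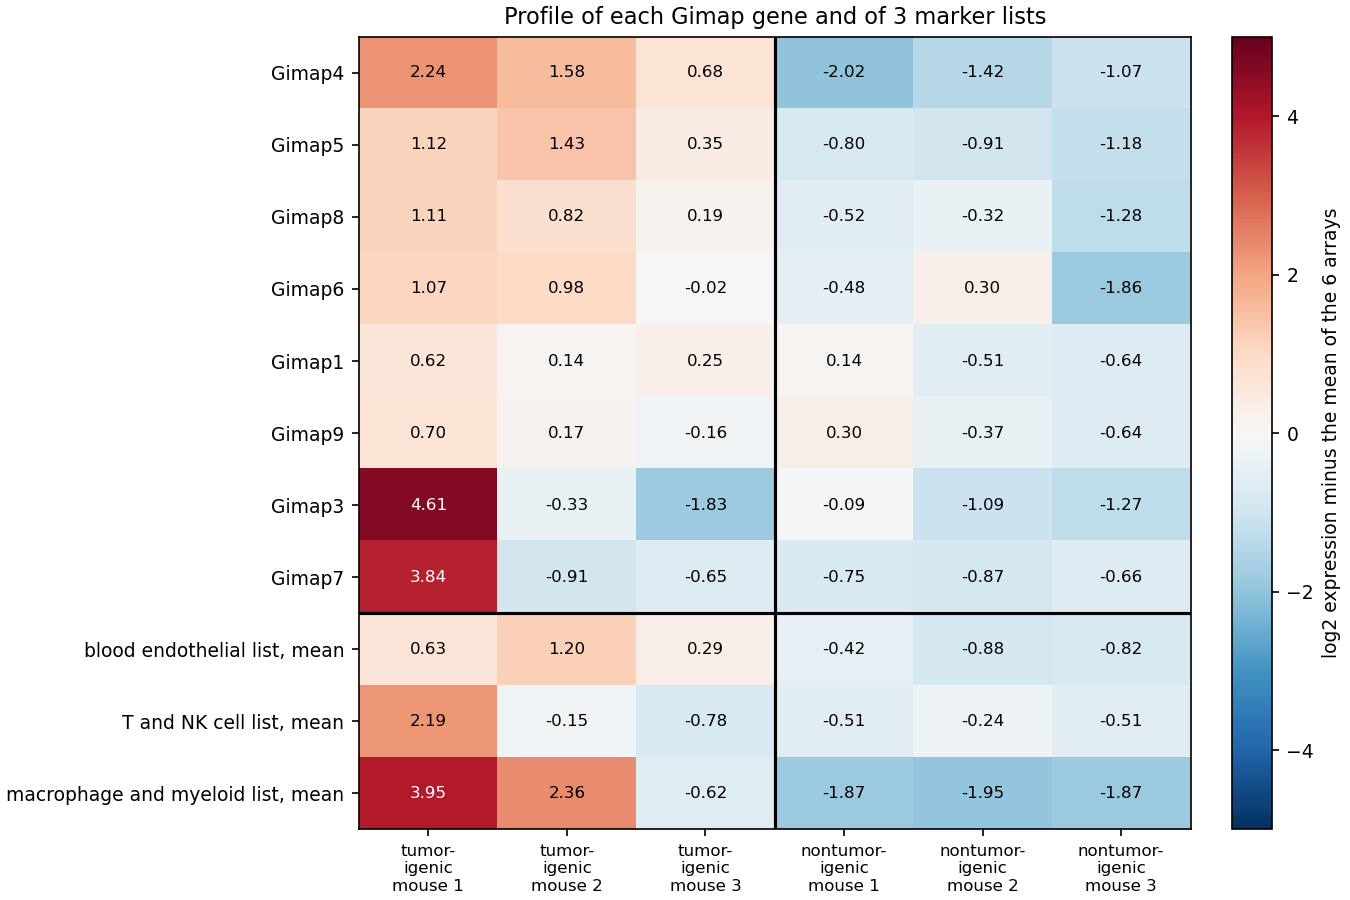
Log2 expression minus the mean over the 6 arrays, for each Gimap gene (rows, top) and for the mean of 3 marker lists (rows below the line). Columns are the 3 labelled tumorigenic arrays (left) and the 3 labelled nontumorigenic arrays (right), with red above and blue below the row mean. Gimap3 and Gimap7 reach 4.61 and 3.84 in the labelled tumorigenic array of mouse 1 and are below their mean in all other arrays.

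Within the family, the nearest pair of centred profiles was Gimap1 and Gimap9, at a distance of 0.19. Next came Gimap6 and Gimap8 at 0.37 and Gimap5 and Gimap8 at 0.37. Gimap3 and Gimap7 were 0.73 apart, and each was over 1.4 from every member outside this pair. Gimap3 and Gimap5, the close relatives, were 1.85 apart, 1 of the widest pairs.

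Outside the family, the gene nearest to the mean Gimap profile was Rgs10, a regulator of G protein signalling, at a distance of 0.13, followed by the pattern receptor gene Tlr2 at 0.15 and the semaphorin gene Sema4f at 0.16. The kinase gene Btk was at 0.20, and Tifab, Gng2, Gngt2, Tal1, Galnt12 and Ntpcr lay between 0.23 and 0.25. In the labelled tumorigenic array of mouse 1, Gimap3 and Gimap7 were 4.61 and 3.84 above their own means, the other members 0.62 to 2.24. The mean Gimap profile thus mixes unlike members, and nearness to it is not nearness to any 1 of them. By member, the nearest genes were Pik3r6 for Gimap4 (0.25), Nr5a2 for Gimap5 (0.19), Kctd12b for Gimap8 (0.083) and Uap1l1 for Gimap6 (0.26). They were Nt5dc2 for Gimap1 (0.058), Faap24 for Gimap9 (0.068), the lymphoid transcription factor gene Ikzf3 for Gimap3 (0.40) and the chemokine receptor gene Ccr2 for Gimap7 (0.17). Ikzf3 had differences of 3.81, 1.23 and 0.29 within mice 1 to 3, and Ccr2 had 4.36, 0.22 and -0.054. Both were picked for likeness to Gimap3 or Gimap7 over these arrays, so being highest in mouse 1 follows from the choice.

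Since Gimap proteins act in lymphocyte survival, a list of 25 genes of that process was examined, of which 21 were tested. Their median log2 difference was 0.15, with 14 positive, 7 negative and 0 called. The members highest by level were Gsk3b, a kinase gene linked to Gimap5 in T cells, with a log2 difference of -0.11, the survival gene Mcl1 with -0.16, the death gene Bcl2l11 with 0.0024 and the transcription factor gene Ets1 with 0.49. Of these 4, only Ets1 separated the populations, being higher under the tumorigenic label, as were 6.9% of all genes. The T cell survival receptor gene Il7r, also on the T and NK cell list, read 7.17, 4.92 and 2.39 under the tumorigenic label and 2.57, 3.14 and 2.48 under the nontumorigenic label. It was named for these values and does not stand for its list, in which 2 of 21 genes were at least 1 log2 unit higher in the labelled tumorigenic array of mouse 1 than in every other array. Another list of immune GTPases, which are induced by interferon, held the immunity-related and guanylate-binding proteins. It also held Mx1, at 0.28, and Mx2, the negative member, at -0.12. The list, named after the first 2 groups, had a median of 0.59 over 11 tested members, with 10 positive and 0 called. Its medians within mice 1 to 3 were 1.06, 0.85 and -0.29. Gbp7 had 0.51, Iigp1 0.54, Gbp6 0.68 and Gbp2 0.59.

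Other compartments of the tumour had medians over the 3 mice nearer to 0 than the endothelial lists, or negative ones. Pericyte genes had a median of 0.035 over 7 members, with Rgs5 at -0.21, Notch3 at -0.30, Pdgfrb at -0.11 and Abcc9 at 0.098. Fibroblast genes had 0.14 over 8, with Col1a1 at -0.12, Col1a2 at 0.027, Col3a1 at -0.063 and Dcn at 0.35, and basal epithelial genes 0.45 over 10, with Mylk at 0.045, Acta2 at 0.35, Tagln at 0.64 and Myh11 at 0.65. These medians hide differences between mice. Within mice 1 to 3 the pericyte medians were 0.40, -0.16 and -0.21, and the fibroblast ones 0.94, 0.50 and -1.10. The basal epithelial ones were -0.036, 0.13 and 1.28. Luminal epithelial genes had a median of -1.67 over 11 members, all negative, or -2.95, -1.24 and -1.54 within mice 1 to 3. Esrp1 was at -0.98, the keratin genes Krt18 at -1.37 and Krt8 at -1.60 and the claudin gene Cldn7 at -2.63. Of the luminal genes 7 of 11 were lower without overlap, as were 840 of all 15027 genes. In each of these 4 lists 0 genes were called.

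The genes beside the cluster gave a local comparison. Of 10 measured neighbours, 5 on each side, 7 had positive and 3 negative differences, with a median of 0.079. Every labelled tumorigenic array was above every labelled nontumorigenic one in 0 of 10, beside 6.9% of all genes. With so few neighbours, nothing is read from that count. The reverse held for 1 of 10, Repin1, as for 840 of all 15027 genes. Rarres2, the chemerin gene, had the highest, 1.17, and Repin1, a zinc finger gene between it and the cluster, the lowest, -0.38. On the other side Tmem176b and Tmem176a, membrane protein genes next to Gimap3, had 0.53 and -0.048, and Gpnmb had 0.74. AI854703, Lrrc61, Atp6v0e2, Doxl1 and Malsu1 had -0.038, 0.59, 0.0077, 0.11 and 0.053. Inside the cluster, position did not sort the patterns: Gimap7 lies between Gimap6 and Gimap1, and Gimap3 next to Gimap5.

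**Figure D5:**
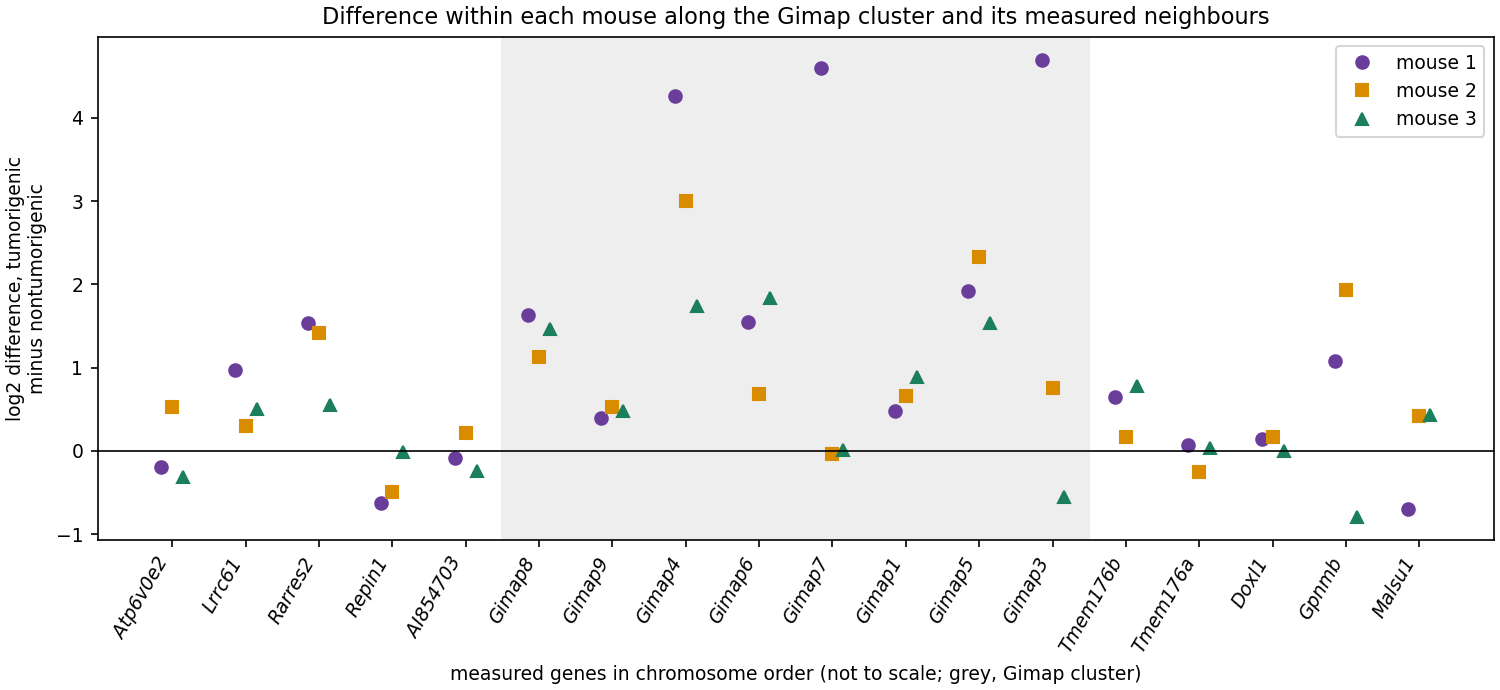
Log2 difference between the labelled tumorigenic and the labelled nontumorigenic array within each mouse (1 point per mouse) for the measured genes in chromosome order, not to scale. The grey band holds the 8 Gimap genes and the white sides 5 measured neighbours each. Mouse 1 exceeds 4 for Gimap4, Gimap7 and Gimap3 only.

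The sequences upstream of the members were read from RefSeq (GRCm38.p6), in which all 8 genes matched and Gimap8 had 2 start sites. The 250 bases before each start held 3 or fewer CpG dinucleotides in 8 of 9 windows, against 37.8% of 32851 promoters and a median of 6. Gimap9 held 8, the family highest, and 59.7% of promoters held that many or fewer. The limit of 3 is the highest count outside Gimap9, and the 2 Gimap8 windows overlap, so nothing is read from this share. GC content was 43.6% to 61.2%, beside a median of 52.4%. A search was made on both strands for an ETS core (GGAAGT), a RUNX core (TGTGGT) and a GATA core (AGATAA), motifs of factors active in blood and vessel cells, chosen with the expression values known. The ETS letters were in the windows of 2 of 8 genes, Gimap5 and Gimap6, against 19.7% of all promoters. The RUNX letters were in those of 3 genes, Gimap1, Gimap4 and Gimap7, against 14.0%, and the GATA letters in 0, against 9.99%. No matches overlapped each other. The windows of Gimap4 and Gimap5, the members with the widest separation of the labels, are shown first, 5′ to 3′ on the strand of the gene and ending at the base before the start, with motif matches in capitals.
Gimap4, chr6:48684328-48684577, plus strand: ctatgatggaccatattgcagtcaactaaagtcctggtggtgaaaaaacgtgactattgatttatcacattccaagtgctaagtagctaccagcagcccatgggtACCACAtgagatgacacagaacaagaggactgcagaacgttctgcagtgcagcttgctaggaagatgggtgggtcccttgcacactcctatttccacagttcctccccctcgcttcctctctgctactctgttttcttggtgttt
Gimap5, chr6:48745947-48746196, plus strand: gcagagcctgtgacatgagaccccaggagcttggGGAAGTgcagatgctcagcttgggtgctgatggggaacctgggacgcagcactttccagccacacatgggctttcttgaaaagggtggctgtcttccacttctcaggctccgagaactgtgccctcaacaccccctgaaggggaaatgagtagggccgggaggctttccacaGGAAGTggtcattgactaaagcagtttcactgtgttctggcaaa

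The match in Gimap4 is the RUNX core on the opposite strand, beginning 145 bases before the start. Those in Gimap5 are ETS cores beginning 216 and 44 bases before the start. The windows of Gimap3 and Gimap7, the members whose signal rested on mouse 1, follow in the same form for comparison.
Gimap3, chr6:48770852-48771101, minus strand: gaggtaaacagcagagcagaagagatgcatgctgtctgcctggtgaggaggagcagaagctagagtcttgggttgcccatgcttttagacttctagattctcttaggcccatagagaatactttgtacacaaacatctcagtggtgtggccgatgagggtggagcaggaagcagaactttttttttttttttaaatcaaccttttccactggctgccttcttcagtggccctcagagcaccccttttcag
Gimap7, chr6:48718371-48718620, plus strand: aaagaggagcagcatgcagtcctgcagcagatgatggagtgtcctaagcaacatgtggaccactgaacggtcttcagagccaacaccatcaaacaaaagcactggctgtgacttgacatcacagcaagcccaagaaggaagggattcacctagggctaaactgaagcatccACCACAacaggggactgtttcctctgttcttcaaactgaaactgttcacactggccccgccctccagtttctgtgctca

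The Gimap7 match is again the RUNX core on the opposite strand, beginning 79 bases before the start, and the Gimap3 window held no match. The motifs thus did not divide the members as the arrays did, since the RUNX letters stood before Gimap4 and Gimap7 alike. A match describes letters in this window and not binding.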

How the data were processed

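The values are log2 expression per probe set, as deposited by the authors, who used RMA to normalise them per the submitters' processing notes. Its version and background step were not stated, and the log2 scale was read from the values. RMA gives all arrays a common distribution, which hides a shift of most transcripts in 1 direction. The small number of arrays limits the precision.

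Of 45101 probe sets, 64 controls entered no test. In the platform annotation 34945 carried 1 gene symbol, 932 more than 1 and 9160 no symbol. Symbols were checked by Entrez identifier against RefSeq (GRCm38.p6): 34741 matched and 0 changed. The 25% with the lowest mean were left out, leaving 33778 probe sets, and each gene took its probe set with the highest mean. The labels were compared across all genes with limma 3.58.1 (lmFit and eBayes, R 4.3.3), with no covariate, two-sided p-values and Benjamini-Hochberg adjustment at 0.05, and the fit was tested on simulated data. Intervals are limma's 95% intervals.

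The titles name the same 3 mice in both populations, so the mouse pairs the arrays. Across genes, deviations from the mean of each population had correlations of 0.079, 0.136 and 0.086 between arrays of the same mouse. Between arrays of different mice the correlations were all negative, from -0.083 to -0.010. The SEs and intervals given by gene do not use the pairing. Blocking on mouse was an alternative. It lowered the SE of every Gimap gene but Gimap4, for Gimap6 from 0.60 to 0.29, and raised that of Gimap4 from 0.45 to 0.52. An exact permutation test of 3 arrays against 3 cannot go below 0.1 and was not used.

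Members, lists and motifs were chosen with earlier results of these data known. Named were all members, the sort genes, up to 4 genes per list by mean level, the 10 genes nearest to the mean Gimap profile, the nearest gene to each member, and 5 measured neighbours per side. Il7r, Gzma, Ncr1 and Ms4a1 were named after their values were seen.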

Additional observations from a re-analysis of the deposited data

How the results depend on the processing

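All 8 Gimap genes stayed above the adjusted threshold in every alternative that tested them, with adjusted p-values (limma) between 0.0624 and 0.998. The mouse block, the changed dim filters and the trended prior returned the same differences by construction, so their signs say nothing of stability. When an array or a mouse was left out, 69 of 72 values kept their sign, and over all alternatives 146 of 150 did. The exceptions were Gimap3, at -0.26 without the labelled tumorigenic array of mouse 1 and -1.01 with that of mouse 3 alone, and Gimap7, at -0.015 without the labelled tumorigenic array of mouse 1 and -0.011 without mouse 1. When an array or a mouse was left out, Gimap3 ranged from -0.26 to 2.955 and Gimap7 from -0.015 to 2.361. The lowest adjusted p was that of Gimap5 without the labelled tumorigenic array of mouse 3.

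A mouse block cannot change differences or overlap in this balanced design, so the family median of 1.47 and the 3 members without overlap stayed. With the block 0 genes passed (1435 at an unadjusted p below 0.05 by limma, against 1277 without it). Gimap5 and Gimap8 then had a limma adjusted p of 0.363. The block changed no call at the adjusted threshold. At an unadjusted p below 0.05 there were 6 members with the block and 4 without. The median over the members was 0.84 to 1.97 when an array or a mouse was left out, lowest without the labelled tumorigenic array of mouse 1, and 0.62 with that of mouse 3 alone. The number of members whose populations did not overlap was 3 to 6 in those settings, 6 without mouse 2 and 5 without mouse 1, without the labelled nontumorigenic array of mouse 1, without the labelled tumorigenic array of mouse 2, and with mouse 3 alone. A smaller group overlaps less by construction: of all genes, 9.4% to 21.8% were higher without overlap when an array or a mouse was left out, 15.7% without mouse 2 and 17.2% without mouse 1, and 25.4% with mouse 3 alone. The number of genes passing was 1, Ramp2, without the dim filter and with the mean of probe sets, and 0 to 18 when arrays were left out, the 18 without the labelled tumorigenic array of mouse 3. None was a Gimap gene. The cause was not tested.

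With the filter at 50%, Gimap1 and Gimap7 were not tested. Differences of dim transcripts, Gimap7 above all, are rough.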
